A study of Homo sapiens with 6 samples.

Results

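ATF4 target genes and genes of the unfolded protein response were followed in MDA-MB231, a human cell line derived from a metastatic breast tumour, with and without a stable knockdown of G9a. The 34 genes were chosen by name, and a gene counted as measured where a probe set of the array was annotated to that gene alone. There were 33 measured genes among the 18417 tested on the arrays: ATF4 itself, 16 of 17 ATF4 targets, 13 genes controlled by XBP1 or ATF6, and the 3 stress sensors ERN1, EIF2AK3 and ATF6. The 13, called chaperone targets below, are chaperone and degradation genes and XBP1 itself. CBS, a transsulfuration enzyme gene, had no probe set of its own and is not analysed here.

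The control group was 3 arrays of untreated parental cells, and the knockdown group was 3 arrays of a single clone of the same line with G9a expression stably reduced, which the labels call less metastatic. G9a is a histone methyltransferase that marks lysine on histone H3. How the knockdown was made is not given in the sources used here. Both groups were grown in serum-containing medium and taken in logarithmic growth. The knockdown is 1 clone, so the loss of G9a and any other difference between that clone and the parental cells cannot be told apart. The labels do not say whether replicates are separate cultures, and the p-values therefore reflect the spread among these arrays alone, which may be technical. In a bulk sample, fewer cells with a transcript and less of it per cell cannot be told apart.

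EHMT2, which encodes G9a, read 10.21, 10.27 and 9.93 on the control arrays and 9.66, 9.59 and 9.51 on the knockdown arrays, all on the log2 intensity scale. The groups did not overlap, and EHMT2 fell by 0.55 ± 0.10 (SE; limma, adjusted p = 0.0259, n = 3 arrays per group). It missed the threshold in the 5 fits that left out an array other than control replicate 3 (adjusted p from 0.0716 to 0.122). The mesenchymal marker VIM read 13.47 to 13.54 over the 6 arrays and the adhesion receptor CD44 13.56 to 13.65, and the estrogen receptor gene ESR1 read 6.64 to 6.88, on arrays whose gene values ran from 2.64 to 14.4. Of the other markers listed for the cell line, the epithelial genes KRT18 and EPCAM read 12.05 to 12.45 and 8.51 to 8.99. The receptor genes ERBB2, PGR and EGFR read 9.76 to 9.84, 5.38 to 5.74 and 11.43 to 11.79. EGFR differed by -0.21 and did not pass (limma, adjusted p = 0.148). CDH1, the epithelial cadherin gene, read 7.10 to 7.64 and rose by 0.45 in the knockdown, a call lost in the same 5 fits (adjusted p up to 0.0983). No detection calls were used, so a low value does not show absence. Of all 18417 genes, 1.28% passed higher and 1.78% lower in limma, and 19.4% had an unadjusted p under 0.05. Among markers of other cells, 0 of 7 leukocyte genes passed the test and 3 had an unadjusted p under 0.05. These were CSF1R, at 7.71 to 8.02 with a difference of 0.22, PTPRC, at 4.89 to 5.17 with 0.21, and CD68, at 12.11 to 12.39 with -0.19. Of 8 fibroblast and endothelial genes, 1 passed higher and 1 lower: CDH5 rose by 0.71 and KDR fell by 0.64. The CDH5 call was lost without control replicate 2 or any 1 of the knockdown arrays (adjusted p up to 0.0869). PECAM1, another endothelial gene, differed by 0.42 and did not pass (limma, adjusted p = 0.0591), but rose by 0.53 without control replicate 3 (adjusted p = 0.0176). The level of the leukocyte markers, as their median deviation from the mean of the 6 arrays, lay between -0.08 and 0.01 in control and between 0.01 and 0.08 in the knockdown, and that of the fibroblast and endothelial markers between -0.14 and 0.01 and between -0.04 and 0.16. Their part in the results below was not tested.

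When unfolded proteins collect in the endoplasmic reticulum (ER), the sensors PERK (EIF2AK3), IRE1 (ERN1) and ATF6 start separate arms of the unfolded protein response. PERK phosphorylates the initiation factor eIF2, as do other kinases that sense amino acid shortage, heme shortage or viral RNA. This lowers general translation but raises translation of ATF4, a transcription factor that turns on genes for amino acid supply, redox balance and, under lasting stress, cell death. IRE1 splices XBP1 mRNA, and cleaved ATF6 and spliced XBP1 turn on ER chaperones and the machinery that degrades misfolded proteins. The ATF4 arm can thus be active without the chaperone arm, as in amino acid shortage. The arrays measured mRNA abundance, which records neither ATF4 translation nor XBP1 splicing.

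The 2 groups of targets are known for different promoter elements, and these were looked for in the 250 bases before each start listed by RefSeq (GRCh38.p14), on both strands. Of the 33 measured genes, all but ALDH1L2 and NUPR1 had a listed start. The C/EBP-ATF response element that ATF4 binds with its C/EBP partners was searched as TGATGNAA. It occurred before 4 of 14 ATF4 targets with a listed start (ASNS, CHAC1, ATF3 and CEBPG) and 1 of 13 chaperone targets (HERPUD1), and in 3.14% of all 35116 windows. Here and below a gene was counted if any of its listed starts had a match, whereas the shares count each window by itself. The ER stress response element ERSE, CCAAT and CCACG with 9 bases between them, occurred before HSPA5, HSP90B1, XBP1, CRELD2 and CALR and in 0.074% of windows. The shorter form ERSE-II, ATTGG, the reverse complement of the first part of ERSE, and CCACG with 1 base between them, occurred before HERPUD1, SDF2L1 and HYOU1 and in 0.0513% of windows. Neither ER stress element matched before any of the 14 ATF4 targets. A match is a run of letters and not a site of binding, and its absence says only that these letters are not in the window.

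For the ATF4 targets that hold the element, the stretch around the match is shown 5′ to 3′ on the gene's own strand, up to 50 bases each side, with the match in capitals. In CHAC1 the element lies on the opposite strand, so its reverse complement is seen. The stretches are ASNS at chr7:97872419-97872526 (minus strand), CHAC1 at chr15:40953221-40953319, ATF3 at chr1:212565166-212565273 and CEBPG at chr19:33374021-33374112 (plus strand). ASNS, ATF3 and CEBPG, and XBP1 further on, each have 2 listed starts, and the start shown is the one whose window held the match.
ASNS: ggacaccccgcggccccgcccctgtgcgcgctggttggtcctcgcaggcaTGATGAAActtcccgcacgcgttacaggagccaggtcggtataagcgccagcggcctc
CHAC1: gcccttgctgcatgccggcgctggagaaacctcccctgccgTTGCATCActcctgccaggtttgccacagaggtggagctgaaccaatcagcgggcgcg
ATF3: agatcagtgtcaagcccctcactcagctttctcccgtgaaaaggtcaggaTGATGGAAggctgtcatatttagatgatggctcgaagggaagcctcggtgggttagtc
CEBPG: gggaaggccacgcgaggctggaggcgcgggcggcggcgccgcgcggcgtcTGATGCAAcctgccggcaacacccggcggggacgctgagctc

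For the chaperone arm the same is shown for the 4 genes with an ER stress element and the largest differences between the groups. HERPUD1 (chr16:56931916-56932085, plus strand) holds the C/EBP-ATF element, in reverse complement, and ERSE-II together, and both are in capitals. HSPA5 (chr9:125241344-125241459, minus strand) and XBP1 (chr22:28800570-28800671, minus strand) hold ERSE, and SDF2L1 (chr22:21642064-21642174, plus strand) holds ERSE-II in reverse complement.
HERPUD1: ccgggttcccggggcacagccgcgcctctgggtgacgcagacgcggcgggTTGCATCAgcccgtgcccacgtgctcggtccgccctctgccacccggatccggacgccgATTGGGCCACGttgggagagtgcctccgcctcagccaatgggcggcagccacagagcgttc
HSPA5: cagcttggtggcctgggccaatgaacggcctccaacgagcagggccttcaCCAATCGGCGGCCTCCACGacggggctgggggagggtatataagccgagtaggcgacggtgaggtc
XBP1: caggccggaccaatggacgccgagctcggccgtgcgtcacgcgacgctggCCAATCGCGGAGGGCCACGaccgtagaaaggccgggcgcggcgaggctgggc
SDF2L1: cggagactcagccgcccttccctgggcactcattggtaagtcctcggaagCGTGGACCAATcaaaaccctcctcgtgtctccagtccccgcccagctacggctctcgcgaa

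ATF4 targets were lower on the knockdown arrays than on the control arrays for most members, and control replicate 3 stood far above the other control arrays for the same genes. The 16 measured targets had a median difference of -0.38 (knockdown minus control, log2), against 0.03 over all 18417 genes, and 14 of the 16 were negative, against 40.4% of all genes. The 13 chaperone targets had a median of -0.09 and 10 negative values. None of the 33 genes passed the test with all 6 arrays (limma, adjusted p of 0.05), where 1.28% of all genes passed higher and 1.78% lower. At an unadjusted p of 0.05 there were 15 lower and 0 higher among the 33, namely ATF4, 9 of its 16 targets and 5 of 13 chaperone targets, where 9.23% of all genes were lower and 10.1% higher. The groups did not overlap, with the knockdown lower, for 20 of the 33 genes, against 12.7% of all genes, and with the knockdown higher for 1, against 14.3%.

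Control replicate 3 stood apart in these genes. Its value lay above the mean of control replicates 1 and 2 by a median of 0.54 for the ATF4 targets, 0.10 for the chaperone targets and 0.01 for all genes. It was the highest of the 6 arrays for 14 of 16 ATF4 targets and 9 of 13 chaperone targets, against 19.8% of all genes. Over all genes, 16 exceeded that mean by more than 1 log2 unit, and 5 of these were ATF4 targets: ASNS, CHAC1, TRIB3, CTH and NUPR1. The inflammatory genes IL1A, CXCL1, CXCL2 and CXCL8 were also among the 16, as seen once the list was made. The median SD among control arrays was 0.314 for the ATF4 targets and 0.084 among knockdown arrays, where all genes had 0.088 and 0.082. These values describe 1 array, and no test was made of it.

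Without control replicate 3, the median of the ATF4 targets was -0.25 with 11 of 16 negative, and 5 targets fell by the same test: ASNS, CHAC1, DDIT3, CTH and VLDLR (1.7% of all genes passed lower and 1.21% higher in that fit). The other 11 targets did not pass, and none of the 5 passed with all 6 arrays or with any other array left out. Control replicate 3 stood apart by the values of these same genes, and dropping it took the SE of ASNS from 0.29 to 0.07. The p-values of this fit, here and below, therefore give no independent support for a fall. The chaperone median stayed at -0.09, and 0 of 13 chaperone targets and 0 of 3 sensors passed. An unadjusted p under 0.05 was reached by 10 of 16 ATF4 targets, 3 of 13 chaperone targets and 0 of 3 sensors. Among all 18417 genes, 4030 reached it in that fit.

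Other settings of the test gave from 0 to 12 calls among the 33 genes, all lower. Leaving out control replicate 1, control replicate 2, or knockdown replicate 1, 2 or 3 gave 0 calls (limma), where 0.684%, 0.434%, 0.195%, 0.679% and 0.125% of all genes passed lower and 0.565%, 0.358%, 0.185%, 0.396% and 0.114% higher. Quantile normalization and median centring also gave 0, with 2.11% and 1.84% of all genes lower and 1.48% and 1.27% higher. PPP1R15A alone passed when the genes of lowest mean were left out, where 4.68% passed lower and 3.24% higher. ASNS, VLDLR and PPP1R15A passed with a variance that depends on intensity, where 3.52% passed lower and 2.36% higher. Array weights, which put the least weight on control replicate 3, called 12 of the 33 lower, where 8.74% of all genes passed lower and 9.33% higher. Those 12 were ASNS, DDIT3, CTH, ALDH1L2, VLDLR, NUPR1, ATF3, PPP1R15A, DNAJB9, DNAJC3, SEL1L and ERN1.

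**Figure D1:**
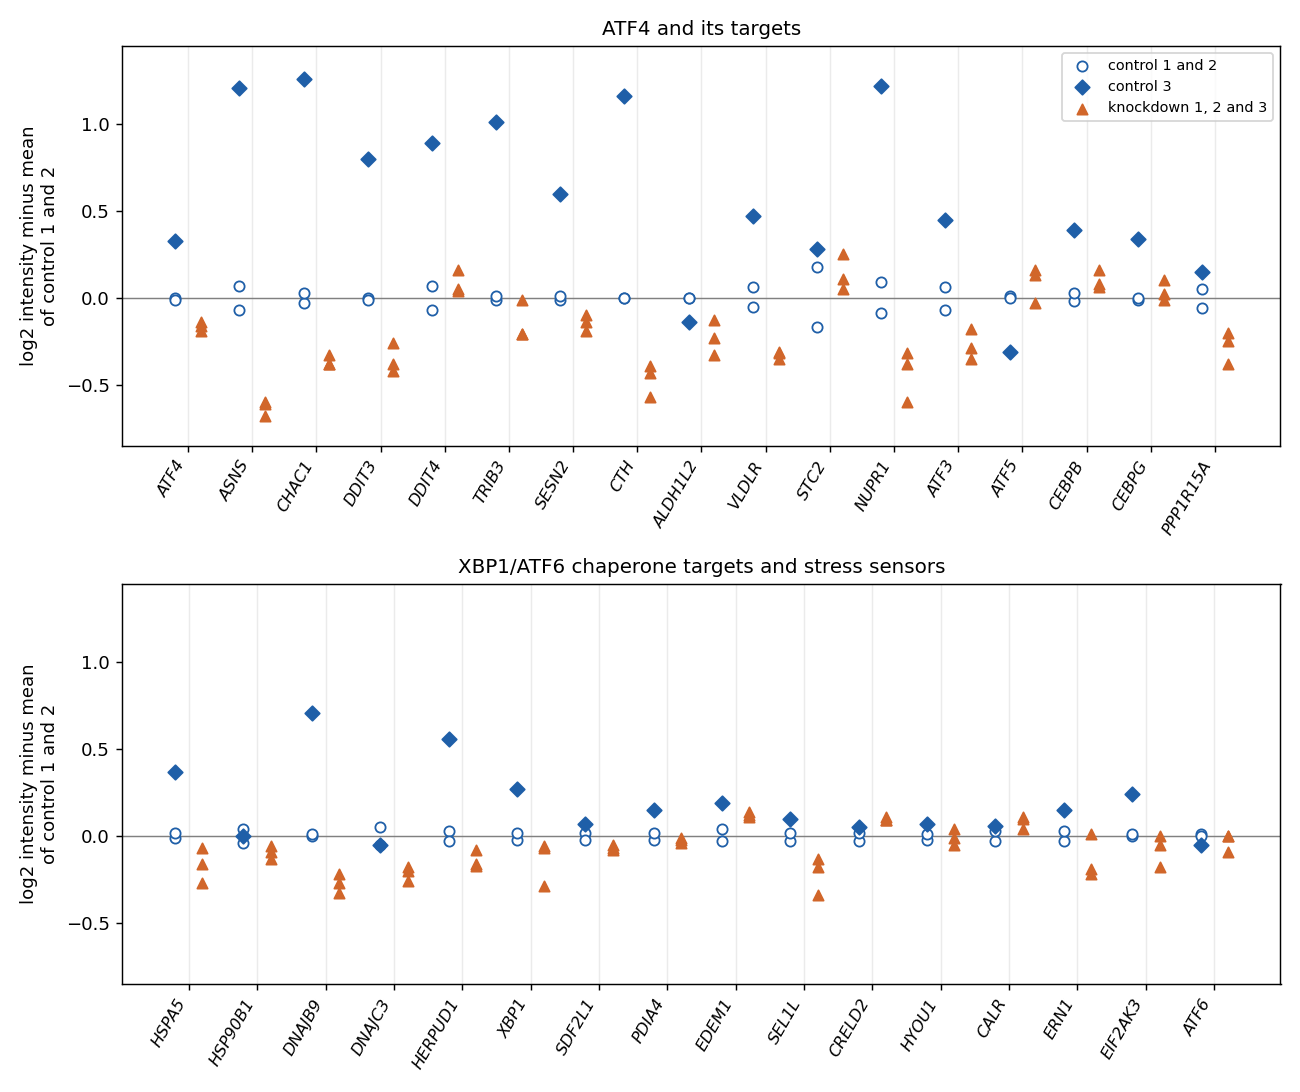
Each point is 1 array's log2 intensity minus the mean of control replicates 1 and 2 for that gene (open circles, control 1 and 2; diamonds, control 3; triangles, knockdown 1 to 3). For ASNS, CHAC1, TRIB3, CTH and NUPR1 control 3 lies more than 1 log2 unit up. In the upper panel 11 of 17 genes have all 3 knockdown arrays below every control array. They are ATF4, ASNS, CHAC1, DDIT3, TRIB3, SESN2, CTH, VLDLR, NUPR1, ATF3 and PPP1R15A.

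ATF4 mRNA read 11.04, 11.03 and 11.37 on the control arrays and 10.85, 10.88 and 10.90 on the knockdown arrays. The groups did not overlap, but the difference of -0.27 ± 0.09 (SE) did not pass (limma, adjusted p = 0.165, and 0.156 without control replicate 3). A second ATF4 probe set read 10.19, 10.14 and 10.46 in control and 10.19, 10.27 and 10.27 in the knockdown. Its groups overlapped and its difference was -0.02, or 0.08 without control replicate 3, so both probe sets were highest on control replicate 3 but differed in where the knockdown lay.

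Among genes of amino acid, glutathione and folate metabolism, ASNS, asparagine synthetase, had the largest difference of the 33 genes. It read 8.75, 8.89 and 10.03 in control and 8.22, 8.14 and 8.21 in the knockdown. Every knockdown array lay below every control array, and the 3 knockdown arrays lay within a narrow range where the control arrays were spread widely. The difference was -1.03 ± 0.29 (SE), a 2.04-fold lower level, at an adjusted p of 0.100 (limma). Without control replicate 3, ASNS fell by 0.63 ± 0.07, to a 1.54-fold lower level (limma, adjusted p = 0.0125), the largest fall among the 33 genes in that fit.

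CTH, cystathionine gamma-lyase, which makes cysteine by transsulfuration, read 9.33, 9.33 and 10.49 in control and 8.90, 8.94 and 8.76 in the knockdown. CHAC1, which degrades glutathione, read 9.26, 9.32 and 10.55 in control and 8.96, 8.91 and 8.91 in the knockdown. In both genes control replicates 1 and 2 were nearly equal, control replicate 3 was more than 1 log2 unit higher, and the knockdown arrays lay below all 3. With all arrays the differences were -0.85 ± 0.28 for CTH and -0.78 ± 0.30 for CHAC1 (SE; limma, adjusted p = 0.144 and 0.203). Without control replicate 3, CTH fell by 0.46 ± 0.07 and CHAC1 by 0.36 ± 0.06 (limma, adjusted p = 0.0286 and 0.0305). CHAC1 holds the C/EBP-ATF letters in its window and CTH does not, and both moved alike. ALDH1L2, a mitochondrial folate enzyme, was an exception among these genes: control replicate 3, at 6.44, was the lowest control array, and the difference of -0.19 ± 0.07 did not pass (adjusted p = 0.222).

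Among stress-induced regulators of growth and death, DDIT3, which encodes the transcription factor CHOP, read 9.02, 9.01 and 9.82 in control and 8.76, 8.60 and 8.64 in the knockdown. The groups did not overlap. Its difference was -0.62 ± 0.20 (SE; limma, adjusted p = 0.136), and without control replicate 3 it fell by 0.35 ± 0.07 (adjusted p = 0.0487), close to the threshold. TRIB3, a pseudokinase induced by CHOP and ATF4, read 9.01, 9.03 and 10.03 in control and 9.01, 8.81 and 8.81 in the knockdown. Here control replicate 3 was high, but knockdown replicate 1 lay at the level of control replicate 1 to 2 decimals, so that the groups do not overlap only before rounding. The difference of -0.48 ± 0.24 became -0.15 ± 0.08 without control replicate 3 (limma, adjusted p = 0.328 and 0.323).

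NUPR1, a stress-induced chromatin protein, read 8.56, 8.74 and 9.87 in control and 8.33, 8.05 and 8.27 in the knockdown. Its groups did not overlap, and it stayed outside the threshold in both fits, at -0.84 ± 0.30 with all arrays and -0.43 ± 0.10 without control replicate 3 (SE; limma, adjusted p = 0.174 and 0.0773). SESN2 and DDIT4, which restrain the growth kinase mTORC1, differed from each other. SESN2 read 8.97, 8.99 and 9.58 in control and 8.79 to 8.88 in the knockdown, without overlap. DDIT4 read 10.23, 10.37 and 11.19 in control and 10.34 to 10.46 in the knockdown, so that its knockdown arrays lay between and just above control replicates 1 and 2. The DDIT4 difference of -0.22 turned to 0.08 without control replicate 3, while SESN2 went from -0.35 to -0.14, and neither passed (limma, adjusted p from 0.206 to 0.636 in these fits).

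VLDLR, the very low density lipoprotein receptor, lay 0.47 above the mean of the other control arrays on control replicate 3. It read 8.87, 8.76 and 9.28 in control and 8.46, 8.50 and 8.49 in the knockdown, without overlap. The difference was -0.48 ± 0.12 with all arrays (SE; limma, adjusted p = 0.0800), and it fell by 0.33 ± 0.06 without control replicate 3 (adjusted p = 0.0452). PPP1R15A, or GADD34, which directs dephosphorylation of eIF2 and so ends the response, had the lowest adjusted p of the 33 genes with all arrays. It read 11.61, 11.50 and 11.71 in control and 11.36, 11.31 and 11.18 in the knockdown, and its difference of -0.33 ± 0.08 missed the threshold (limma, adjusted p = 0.0651, and 0.105 without control replicate 3). Its value on control replicate 3 lay 0.15 above the mean of the other control arrays.

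The transcription factors that work beside ATF4 were mixed. ATF3, which is induced by ATF4, read 7.91, 7.78 and 8.30 in control and 7.67, 7.50 and 7.56 in the knockdown, without overlap, and its difference of -0.42 ± 0.13 did not pass (SE; limma, adjusted p = 0.118). CEBPB and CEBPG, which pair with ATF4 on its element, differed by -0.03 and -0.08 with all arrays and by 0.09 and 0.04 without control replicate 3, where they were raised by 0.38 and 0.34 over the other control arrays. CEBPG, which holds the element shown above, had a 95% interval of -0.31 to 0.15 around its difference. ATF5 went the other way: control replicate 3, at 9.90, was its lowest array, and the difference was 0.19 ± 0.10 (adjusted p = 0.356). STC2, a secreted glycoprotein, read 6.19 to 6.64 in control and 6.41 to 6.61 in the knockdown, with overlap.

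**Figure D2:**
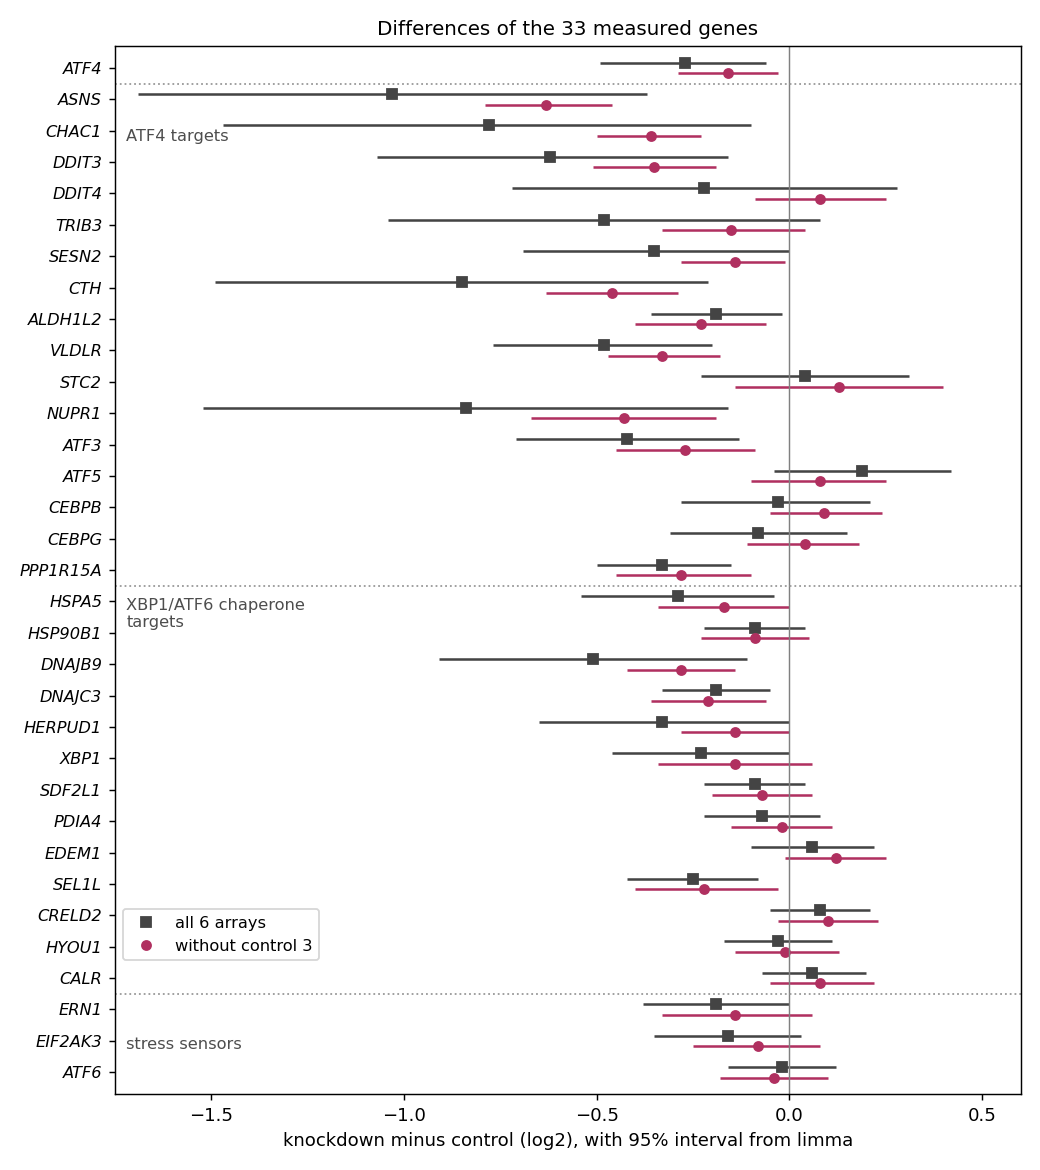
Knockdown minus control on the log2 scale for each of the 33 genes with its 95% interval from limma, with all 6 arrays (dark grey squares) and without control replicate 3 (red circles); dotted lines part the gene groups. Leaving out that array moves ASNS from -1.03 to -0.63 and narrows its interval, while the 13 chaperone targets lie between -0.51 and 0.08 with all arrays.

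In the chaperone arm the larger differences sat in a few genes. DNAJB9, an ER co-chaperone that holds IRE1 inactive, read 9.59, 9.60 and 10.30 in control and 9.32, 9.37 and 9.26 in the knockdown. The groups did not overlap, and the difference was -0.51 ± 0.17 with all arrays and -0.28 ± 0.06 without control replicate 3 (SE; limma, adjusted p = 0.158 and 0.0644). HERPUD1, an ER membrane protein of the degradation machinery, read 11.70, 11.64 and 12.23 in control and 11.51, 11.50 and 11.59 in the knockdown. These were the 2 chaperone targets whose value on control replicate 3 lay more than 0.5 log2 units above the mean of the other control arrays, by 0.71 and 0.56, and HERPUD1 is the member of that group with a C/EBP-ATF element in its window.

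HSPA5, which encodes BiP, the main ER chaperone and a brake on all 3 sensors, read 12.98, 13.01 and 13.36 in control and 12.72, 12.83 and 12.92 in the knockdown. Its groups did not overlap, and the difference of -0.29 ± 0.11 became -0.17 ± 0.07 without control replicate 3 (SE; limma, adjusted p = 0.198 and 0.239). XBP1 read 11.17, 11.21 and 11.46 in control and 11.12, 11.13 and 10.90 in the knockdown, a difference of -0.23 ± 0.10 that did not pass (adjusted p = 0.252). Both genes were raised on control replicate 3, by 0.37 and 0.27.

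DNAJC3, a BiP co-chaperone also called p58IPK, and SEL1L, the scaffold of the HRD1 degradation complex, were lower on every knockdown array, and control replicate 3 lay at most 0.10 above the mean of the other control arrays. DNAJC3 read 10.40, 10.50 and 10.40 in control and 10.19, 10.27 and 10.25 in the knockdown (difference -0.19 ± 0.06, SE; limma, adjusted p = 0.132). SEL1L read 10.93, 10.98 and 11.06 in control and 10.62, 10.78 and 10.83 in the knockdown (difference -0.25 ± 0.07; limma, adjusted p = 0.117). Neither passed in any fit with 1 array left out.

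The other chaperone targets had smaller differences, and none passed. HSP90B1 (GRP94) and SDF2L1 each differed by -0.09, PDIA4, a disulfide isomerase, by -0.07, and HYOU1, a nucleotide exchange factor for BiP, by -0.03. EDEM1, which hands misfolded glycoproteins to degradation, and the lectin chaperone CALR each differed by 0.06, and CRELD2 by 0.08. For these 7 genes the 95% intervals with all arrays ran at most from -0.22 to 0.22, so larger differences on this scale lie outside them. The groups did not overlap for 3 of the 7. The knockdown arrays lay below the control arrays for HSP90B1 (13.19 to 13.26 against 13.28 to 13.36) and SDF2L1 (8.64 to 8.67 against 8.70 to 8.79). They lay above them for CRELD2 (8.19 to 8.21 against 8.07 to 8.15). HSP90B1, SDF2L1, CRELD2, HYOU1 and CALR hold an ER stress element in their windows, as HSPA5 does.

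The sensors differed little. EIF2AK3, which encodes PERK, read 9.87, 9.88 and 10.11 in control and 9.69, 9.82 and 9.87 in the knockdown, which do not overlap before rounding. Its difference was -0.16 ± 0.08 (SE; limma, adjusted p = 0.347). ERN1, which encodes IRE1, read 9.45, 9.51 and 9.63 in control and 9.49, 9.29 and 9.26 in the knockdown, with overlap and a difference of -0.19 ± 0.08 (adjusted p = 0.262). ATF6 read 11.74 to 11.80 in control and 11.70 to 11.79 in the knockdown, and its difference was -0.02 with a 95% interval of -0.16 to 0.12.

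The wider ATF4 programme was followed in 3 further lists. Of 13 aminoacyl-tRNA synthetase and tRNA export genes, 12 had negative differences and 12 had their highest value on control replicate 3. The list's median was -0.20, or -0.12 without that array, and LARS1, leucyl-tRNA synthetase, was the 1 member that fell, by 0.57 ± 0.10 (SE; limma, adjusted p = 0.0253). Of 16 amino acid synthesis and transport genes, 15 had negative differences with a median of -0.14, or -0.08 without control replicate 3. Control replicate 3 was the highest array for 10 of the 16, and the member that passed rose. That member was SLC7A5, the leucine transporter, at 12.51, 12.50 and 12.55 in control and 12.96, 12.96 and 12.92 in the knockdown, a rise of 0.42 ± 0.06 (adjusted p = 0.0112). Of 11 signalling and secreted targets, GADD45A, a growth arrest gene, fell by 0.54 ± 0.11 (adjusted p = 0.0451), and the median was -0.14. Without control replicate 3 that median was -0.06, with 7 of 11 negative against 9 with all arrays. Control replicate 3 was the highest array for 9 of the 11. GADD45A missed the threshold in each fit without 1 of the arrays other than control replicate 3 (adjusted p from 0.0592 to 0.169) and after quantile normalization (0.0562). SLC7A5 missed it when control replicate 2 or knockdown replicate 1 or 3 was left out (0.0506 to 0.0676), and LARS1 without control replicate 2 or any 1 of the knockdown arrays (0.0519 to 0.0911).

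The kinases, eIF2 subunits and regulators of the integrated stress response did not follow control replicate 3, which was the highest array for 3 of 16. Their median difference was -0.06, and DELE1, a mitochondrial stress relay to the eIF2 kinase HRI, fell by 0.29 ± 0.06 (SE; limma, adjusted p = 0.0343). Of 18 further ER folding enzymes and chaperones, SIL1, a nucleotide exchange factor for BiP, fell by 0.41 ± 0.06 (adjusted p = 0.0127), with a list median of -0.01. Of 17 translocation and ER export genes, SEC23B, a COPII coat subunit, fell by 0.40 ± 0.07 (adjusted p = 0.0223), with a median of -0.11. DELE1 and SEC23B missed the threshold in each fit without 1 of the arrays other than control replicate 3 (adjusted p from 0.0526 to 0.150). SIL1 missed it when control replicate 2 or knockdown replicate 1 or 3 was left out (0.0528 to 0.0737). None of 18 further degradation genes passed, and their largest differences were those of SELENOS (-0.37) and UFD1 (0.17). An unadjusted p under 0.05 was reached by 1 of the 18 and by 19.4% of all genes. With all arrays, 1.28% of all genes passed higher and 1.78% lower. None of 12 further transducers and processing genes passed either, with BCL2L11 at 0.49 and MBTPS2 at 0.23 and 3 genes at an unadjusted p of 0.05; BCL2L11, a death effector also called BIM, rose by 0.36 without control replicate 3 (adjusted p = 0.0359).

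Of the listed genes that fell, LARS1, SIL1, DELE1, HMGCS1 and STARD4 lie on chromosome 5. Whether that chromosome holds more falling genes than others was not tested. In the RefSeq gene order, the 38 tested genes nearest LARS1 had a median difference of -0.23, those nearest SIL1 -0.17 and those nearest DELE1 -0.09, and the windows of LARS1 and DELE1 overlap while that of SIL1 is apart. The sterol genes HMGCS1 and STARD4, on the same chromosome, had neighbours with medians of -0.03 and -0.07. STC2, on the same chromosome, had neighbours with a median of -0.21 and itself differed by 0.04. For the other 32 measured genes among the 34, the medians of up to 38 neighbours lay between -0.07 and 0.10, and the medians for ASNS (0.04), CHAC1 (0.05), DDIT3 (0.05), CTH (-0.05) and VLDLR (0.07) lay within that range.

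The level of a group on each array was taken as the median over its genes of the value minus the mean of the 6 arrays. For the ATF4 targets it was 0.03, 0.01 and 0.57 on the control arrays and -0.13, -0.21 and -0.23 on the knockdown arrays. For the chaperone targets it was 0.01, 0.01 and 0.10 in control and -0.05, -0.06 and -0.03 in the knockdown. Both groups were lowest on the knockdown arrays and highest on control replicate 3, and the range was wider for the ATF4 targets. Cytosolic heat shock chaperones, listed together with the mitochondrial HSPD1 and HSPE1, stayed between -0.05 and 0.02. Of these 10 genes 0 passed and 0 had an unadjusted p under 0.05. The largest differences were those of HSP90AA1 (-0.09) and DNAJA1 (0.06). Sterol response genes also had their highest level on control replicate 3, at 0.61 against 0.20 and 0.20 on the other control arrays. Of 9 such genes 5 fell, and 0 to 7 with 1 array left out. Over all genes 1.78% fell, and 0.125% to 1.7% with 1 array left out. INSIG1 was lower by 1.19 ± 0.20 (SE; limma, adjusted p = 0.0236). The other 4 were HMGCS1 (-0.95), SC5D (-0.86), STARD4 (-0.84) and IDI1 (-0.65). Their part in the ATF4 result was not tested.

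**Figure D3:**
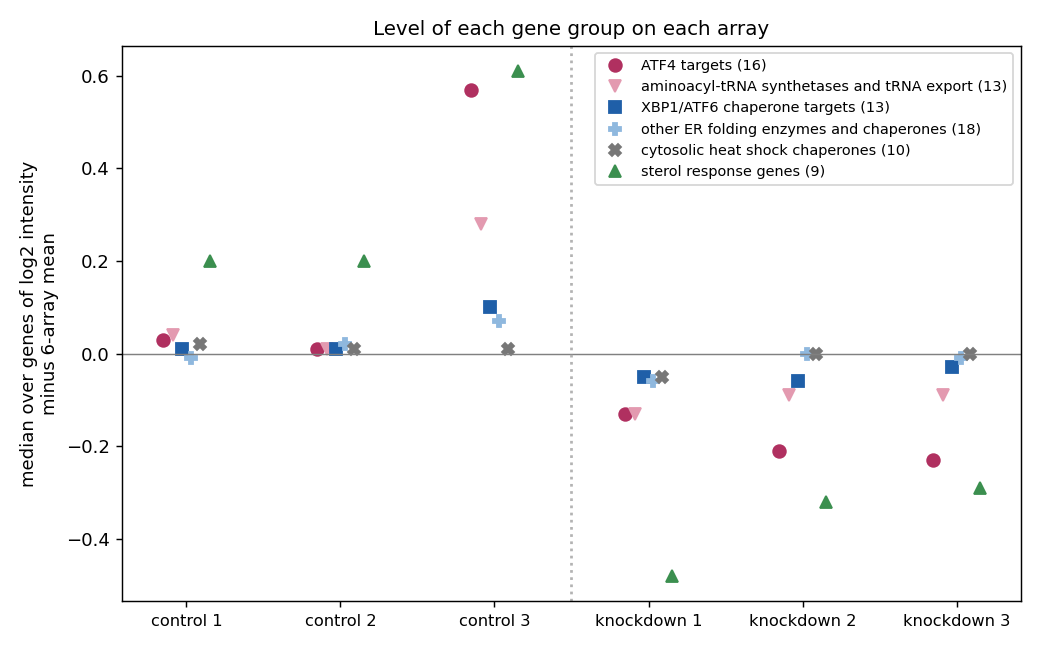
Median over the genes of each group (number of genes in brackets) of log2 intensity minus the mean of the 6 arrays, by array. The group labelled cytosolic heat shock chaperones includes the mitochondrial HSPD1 and HSPE1. The ATF4 targets stand at 0.57 on control 3 and between -0.23 and -0.13 on the knockdown arrays, while the chaperone targets stay between -0.06 and 0.10.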

How the data were processed

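The deposited table holds 1 value per probe set and array, taken as log2 intensity from its range; per the labels, biotin-labelled total RNA was hybridised, and the authors' summary and scaling method is not given in the sources used here. Of 33297 probe sets, 19460 had 1 gene symbol, 1754 several and 12083 none. Symbols were updated through the Entrez number (19429 found in RefSeq), and the probe set with the highest mean stood for each of 18417 genes. The difference (knockdown minus control) came from limma 3.58.1 under R 4.3.3, by lmFit and eBayes (4 residual degrees of freedom, two-sided), with Benjamini-Hochberg adjustment over all genes and a threshold of 0.05. A fold is 2 to the power of the difference. Array medians over genes lay between 8.59 and 8.61, and r between arrays, across genes, between 0.992 and 0.998. Precision is limited by having 3 arrays a group. The fit was tested on simulated data.

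Members, lists and tests were chosen with earlier results of these data known. Lists are described by counts and medians. All members were named, and from lists other than markers each gene that passed or, where none did, the 2 largest differences. All markers listed for the cell line were named, and of the other markers those with an unadjusted p under 0.05. Promoters shown were those with a match and the largest differences, 4 per arm. Alternatives were scaling, a low-value filter, variance trend, array weights, probe set choice, replicate block and leaving out each array. Replicate numbers were not taken to pair the arrays. Deviations of same-numbered arrays from their group means correlated at -0.246, 0.122 and 0.0877, which does not settle whether they pair.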

Additional observations from a re-analysis of the deposited data

How the results depend on the processing

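The number of genes passing over the whole array was 972 when the 33.3% of genes with the lowest means were dropped, 1083 with a variance trend and 3328 with array weights, against 562, and 44 to 535 with 1 array left out. Among ATF4 and its targets, 1 passed with the low genes left out (PPP1R15A), 3 with a variance trend (ASNS, VLDLR and PPP1R15A), 8 with array weights, and 0 to 5 with 1 array left out. Array weights, which gave control replicate 3 the lowest weight (0.273), also called 3 chaperone targets (DNAJB9, DNAJC3 and SEL1L) and 1 sensor (ERN1). Quantile normalization, median centring and the mean of probe sets called 0 of the 33 genes. With the replicate number as a block, 217 genes passed over the whole array (0.548% higher, 0.63% lower) and 0 of the 33. In that limma fit GADD45A, DELE1 and SEC23B missed the threshold (adjusted p = 0.0831, 0.0975 and 0.0661), and EHMT2 stayed past it (adjusted p = 0.0367). The labels give no more than a shared number for such arrays, and whether they pair is not known. EHMT2 ranged from -0.66 to -0.49 with 1 array left out and missed the threshold in the 5 such fits other than that without control replicate 3 (adjusted p from 0.0716 to 0.122). The median of the ATF4 targets ranged from -0.48 to -0.25 and that of the chaperone targets from -0.11 to -0.09 with 1 array left out. Signs turned for DDIT4 (0.03), CEBPB (0.04) and CEBPG (0.0029) with array weights, and for STC2 (-0.01) and ATF6 (0.0023) after quantile normalization. With 1 array left out DDIT4 ranged from -0.40 to 0.08, CEBPB from -0.11 to 0.09, CEBPG from -0.14 to 0.04, STC2 from -0.09 to 0.13 and ATF6 from -0.04 to 0.01. Where a call changed, the cause was not tested. Without detection calls, low values were not separated from background.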
